A study of Mus musculus with 6 samples.

Results

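The genes described here encode the enzymes of the tricarboxylic acid (TCA) cycle, the proteins that bring pyruvate into it, and the enzymes and carriers that feed it with glutamate or move its products across the mitochondrial membrane. They were chosen by name, with earlier results of these data known. All 29 genes were among the 18543 genes of the count table and among the 14052 that passed the filter on low counts. They were followed in messenger RNA from group 2 innate lymphoid cells (ILC2s), lymphocytes without rearranged antigen receptors that release type 2 cytokines when the epithelial alarmin IL-33 reaches them. The cells were sorted from lungs of C57BL/6 mice, 8 weeks old, given 0.5 µg of recombinant IL-33 into the nose daily for 3 days, with isolation on day 4. Of the 6 libraries, each made from 10 ng of RNA, 3 are labelled wild type (WT 1 to WT 3) and 3 Atg5-/- (KO 1 to KO 3). All mice received IL-33, so no library shows the resting state. The labels name neither a Cre driver nor the deleted exons, and they do not say whether each library came from its own mouse.

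In the TCA cycle, acetyl-CoA made from pyruvate condenses with oxaloacetate to citrate, which is oxidised stepwise back to oxaloacetate while NADH and FADH2 are passed to the respiratory chain. Pyruvate carboxylase refills the cycle with oxaloacetate, and glutamine refills it through glutamate and 2-oxoglutarate. The malate-aspartate shuttle carries reducing equivalents from the cytosol into mitochondria, and the citrate carrier exports citrate for lipid synthesis. Lymphocytes that are activated run glycolysis and the cycle together, and ILC2s also burn fatty acids and amino acids in it.

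The targeted gene did not follow the labels. Atg5, which encodes a part of the machinery that conjugates LC3 to autophagosome membranes, had 66.3, 71.8 and 21.8 CPM (estimated read counts scaled to library size) under the labels WT 1 to WT 3 and 23.0, 25.6 and 52.2 CPM under KO 1 to KO 3. The lowest value thus lay under a wild-type label, and the 2 groups overlapped (log2 difference -0.67, SE 0.50, adjusted p = 0.478, and -1.03, SE 0.33, adjusted p = 0.0489 without WT 3). Every direction below is therefore one between labels, and the fitted difference and the ratio of each of the 29 genes are given with and without the library labelled WT 3. WT 3 was singled out because its Atg5 level was already known from these data. The Atg5 difference without it is thus no test of the knockout. All p-values without WT 3 follow from that choice. Estimated counts summed to between 28827545 and 33662979 per library. Summed levels of marker genes are given as wild-type range, then knockout range. ILC2 markers, all 10 listed and led by Il5, had 14000 to 15400 and 10000 to 13900 CPM, far above those of other cells, with Il5 the largest part of the sum. T cell markers (7 of 8 in the table, led by Cd3g) had 24.5 to 44.8 and 26.4 to 27.9 CPM, B cell markers (4 of 6, led by Ighm) 24.6 to 30.6 and 25.7 to 201 CPM, and endothelial markers (3 of 5, led by Pecam1) 8.64 to 93.1 and 92.0 to 131 CPM. Epithelial markers (5 of 8, led by Epcam) ran from 15.3 to 59.1 and from 9.35 to 29.6 CPM, macrophage, monocyte and dendritic cell markers (8 of 9, led by Cd68) from 4.61 to 12.1 and from 3.03 to 6.13 CPM, and granulocyte and mast cell markers (5 of 9, led by Cma1) from 8.19 to 17.2 and from 2.90 to 10.8 CPM. Markers of NK cells and ILC1s (4 of 6, led by Prf1), ILC3s (3 of 4, Il22), fibroblasts (2 of 5, Col1a1) and erythroid cells (3 of 5, Hba-a1) summed to at most 5.77 CPM in every library. In such bulk samples fewer cells of a type and less RNA per cell cannot be told apart.

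None of the 29 genes passed with all 6 libraries, and 15 passed once WT 3 was left out. With all 6, edgeR's quasi-likelihood test called 0 of 29 at an adjusted p under 0.05, where it also called 0% of the 14052 genes tested. At an unadjusted p under 0.05 it found 1, Pcx, against 14.4% of all genes. DESeq2 called 0 of the 29 (2 at an unadjusted p under 0.05), beside 2.3% of all genes, 2.19% lower and 0.107% higher. By limma-voom and limma-trend 0 of the 29 passed, adjusted or not. Without the library labelled WT 3, 15 of 29 (51.7%) passed, beside 33.9% of the 14743 genes tested in that fit. Among the 15, 11 rose, where 17.7% of all genes rose, and 4 fell, where 16.1% fell. The 11 were Pdhb, Dlat, Dld, Pdhx, Idh3a, Idh3g, Dlst, Suclg1, Suclg2, Mdh2 and Got2, and the 4 were Pcx, Ogdh, Slc25a11 and Glud1. All 15 had the same sign in the fit to all 6 libraries, which contains the libraries that gave these calls and so is no separate support. Mdh2 and Got2 lost their call with DESeq2 size factors, and these and Pdhx with upper-quartile scaling. The median log2 fold change of the 29 genes was 0.12 with all 6 libraries and 0.17 without WT 3, beside 0.02 over all tested genes in both fits. In a comparison of 2 libraries with 2, without both libraries numbered 3, 18 of 29 passed beside 45.4% of all genes: the same 15, Fh1 on the higher side, and Pdp1 and Idh1 on the lower.

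**Figure D1:**
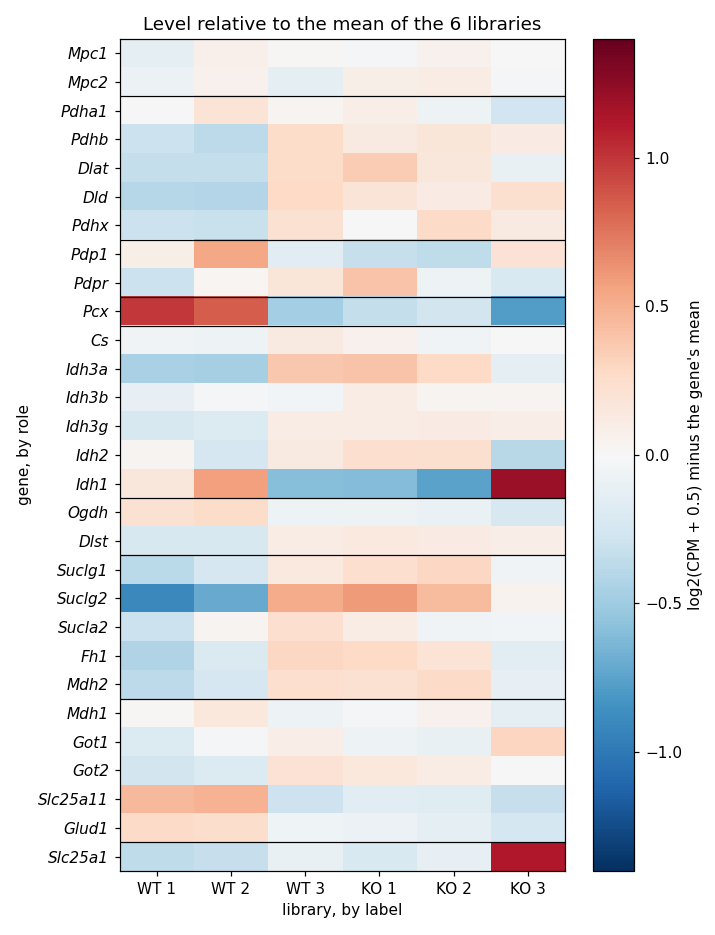
Level of each of the 29 genes in each library (columns, by label) as log2(CPM + 0.5) minus the gene's mean over the 6 libraries, genes grouped by role from the pyruvate carrier at the top to the citrate carrier at the bottom. The columns WT 3, KO 1 and KO 2 look alike in most rows, and KO 3 stands out in Idh1 and Slc25a1.

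The heat map of centred levels shows how the libraries split over these genes. In 27 of 29 the level under WT 3 lay nearer to the mean of KO 1 and KO 2 than to the mean of WT 1 and WT 2, as it did in 77.6% of all tested genes. The exceptions were Mpc2 and Idh3b. Only 2 of 29 genes, Idh3b above and Glud1 below, had 3 knockout libraries entirely on one side of the 3 wild-type libraries, which was so in 18.5% of all genes. KO 3 lay above the other 5 libraries in 3 genes, Idh1, Got1 and Slc25a1 (22% of all genes), and below them in 7, Pdha1, Pcx, Idh2, Ogdh, Mdh1, Slc25a11 and Glud1 (20.3% of all genes). Other measures moved with the same split of WT 1 and WT 2 from the rest. Pecam1, from the endothelial list but also made by leukocytes, was at 10.4 and 8.54 CPM in these 2 libraries and at 92.0 to 131 CPM elsewhere, while Tek and Vwf stayed under 1 CPM in all 6. Epcam was at 57.4 and 52.3 CPM against 8.90 to 14.3 CPM, while the other 4 epithelial markers stayed under 1 CPM except Scgb1a1 in KO 2. Cd3g was at 35.3 and 37.2 CPM against 11.4 to 18.8 CPM, but the other T cell markers did not share this split, with Cd3e at 3.15 and 2.39 CPM against 2.80 to 4.41 CPM and Cd5 at 0.295 and 0.0327 CPM against 0.298 to 4.05 CPM. Several markers of the ILC2s themselves moved with it too. Gata3, their lineage transcription factor, was at 1559 and 1533 CPM in WT 1 and WT 2 against 900.1 to 964 CPM, and Il1rl1, the IL-33 receptor, at 973 and 924 CPM against 432 to 527 CPM. Klrg1 was at 526 and 556 CPM against 121 to 174 CPM, and the cytokine gene Il13 lay the other way, at 99.0 and 117 CPM against 286 to 367 CPM. Rora was at 439 and 448 CPM against 288 to 359 CPM, and Thy1 at 8.88 and 9.85 CPM against 0.670 to 2.87 CPM. Il5, the largest part of the ILC2 sum, did not share the split, at 8242 and 9003 CPM against 5352 to 9194 CPM. Il2ra, at 2628 and 2587 CPM against 2075 to 2360 CPM, and Icos, at 104 and 102 CPM against 88.0 to 96.5 CPM, differed less. Il7r lay slightly the other way, at 95.5 and 93.1 CPM against 97.9 to 106 CPM. Mitochondrially encoded genes took 0.714% and 0.535% of the counts against 0.230% to 0.433%. The part of these in the results was not tested.

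Promoters are shown for the genes with the most distinct patterns: Suclg2, which rose most without WT 3, Pcx, which fell most, and Slc25a1, which was high in KO 3 alone. Each is the 250 bases before a RefSeq start site (GRCm38.p6, the mm10 assembly), 5′ to 3′ on the gene's strand, with capitals marking matches on either strand to any of 8 motifs searched.
Suclg2, chr6:95718847-95719096, reverse strand: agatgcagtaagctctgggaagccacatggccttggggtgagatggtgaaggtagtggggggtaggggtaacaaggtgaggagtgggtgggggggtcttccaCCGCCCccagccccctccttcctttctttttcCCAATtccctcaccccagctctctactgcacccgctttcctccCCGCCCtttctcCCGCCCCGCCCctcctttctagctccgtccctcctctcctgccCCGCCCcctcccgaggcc
Pcx, chr19:4510222-4510471, forward strand: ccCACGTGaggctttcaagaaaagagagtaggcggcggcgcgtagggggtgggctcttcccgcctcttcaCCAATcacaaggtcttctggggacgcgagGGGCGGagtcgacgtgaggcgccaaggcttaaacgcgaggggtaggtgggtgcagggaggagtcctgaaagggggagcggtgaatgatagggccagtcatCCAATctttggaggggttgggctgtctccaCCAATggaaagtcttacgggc
Slc25a1, chr16:17928220-17928469, reverse strand: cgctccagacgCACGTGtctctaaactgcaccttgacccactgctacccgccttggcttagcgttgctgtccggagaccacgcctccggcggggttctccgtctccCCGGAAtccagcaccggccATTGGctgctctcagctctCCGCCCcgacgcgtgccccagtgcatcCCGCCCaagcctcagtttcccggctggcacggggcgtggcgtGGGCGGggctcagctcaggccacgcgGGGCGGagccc
RefSeq promoters were matched for 27 of the 29 genes (35 windows, since some have several start sites), and Idh3a and Pdp1 had no entry. The GC box GGGCGG was in 23 of the 35 windows (65.7%) and in 32.7% of all 32851 promoter windows. The CCAAT box (CCAAT) was in 19 (54.3%, beside 33.8% of all) and the ETS core CCGGAA in 7 (20%, beside 12%). CACGTG, the E-box that MYC and TFE3 can bind, was in 6 (17.1%, beside 6.02%), those of Pcx, Pdpr and Slc25a1 and 3 of Ogdh, 2 of which overlap and share the element. The cAMP response element TGACGTCA was in 5 (14.3%, beside 1.55%), those of Mdh2 and Pdpr and 3 of Ogdh that overlap and share the element. The NRF1 site (GCGC, any base, TGCGC) was in 1, of Sucla2 (2.86%, beside 3.74%). The sterol regulatory element TCACNCCAC (1.05% of all) and the estrogen-related receptor element TCAAGGTCA (0.387% of all) were in none. In the sequences above, Suclg2 holds 5 GC boxes, 2 of which share a base, and 1 CCAAT box, Pcx 3 CCAAT boxes, 1 GC box and 1 E-box, and Slc25a1 4 GC boxes and 1 each of E-box, CCAAT box and ETS core. Another Pcx window, chr19:4594069-4594318, is not printed and holds 0 matches. Which start site these cells use was not tested. All windows include those of genes not expressed here, and a match is a run of letters, not a shown binding site.

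Pyruvate reaches the matrix through a carrier of 2 subunits, and neither passed in any of the 3 fits. Mpc1 stood at 169, 194 and 188 CPM under WT 1 to WT 3 and at 183, 194 and 185 CPM under KO 1 to KO 3. Mpc2 stood at 60.5, 66.6 and 58.0 CPM and at 67.4, 68.8 and 62.7 CPM in the same order. Both genes overlapped between labels, with log2 differences of 0.03 (SE 0.13) for Mpc1 and 0.10 (SE 0.12) for Mpc2 with all 6 libraries, and of 0.05 (SE 0.10) and 0.07 (SE 0.11) without WT 3. A processed pseudogene, Mpc1-ps, is in the table too, so reads could be divided between it and Mpc1.

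Genes of the pyruvate dehydrogenase complex, which turns pyruvate into acetyl-CoA, were mostly lowest in WT 1 and WT 2. Without WT 3, 4 of the 5 measured genes of the complex rose and 0 fell, where 17.7% of all genes rose and 16.1% fell. Dld, the E3 subunit that reoxidises lipoamide and is shared with the oxoglutarate complex, stood at 106 and 105 CPM under WT 1 and WT 2, at 169 CPM under WT 3, and at 158, 151 and 162 CPM under KO 1 to KO 3. Pdhb, the beta subunit of the decarboxylase E1, stood at 126, 120 and 186 CPM with wild-type and at 170, 175 and 168 CPM with knockout labels. Dlat, the E2 acetyltransferase core, stood at 77.9, 78.1 and 118 CPM and at 127, 110 and 91.6 CPM. In all 3, WT 3 lay within or above the knockout range. Without WT 3 the rises on the log2 scale were 0.58 for Dld (SE 0.09, adjusted p = 0.00235), 0.48 for Pdhb (SE 0.08, adjusted p = 0.00477) and 0.50 for Dlat (SE 0.14, adjusted p = 0.0345). Pdhx, which tethers E3 to the core, stood at 26.5, 26.3 and 38.2 CPM under the wild-type labels and at 33.0, 39.5 and 35.8 CPM under the knockout labels, and rose by 0.46 (SE 0.13, adjusted p = 0.0364). These 4 had differences of 0.25 to 0.31 with all 6 libraries, and adjusted p from 0.440 to 0.509. Pdha1, the X-linked alpha subunit of E1, went the other way in value, at 186, 212 and 190 CPM under WT 1 to WT 3 and 197, 176 and 153 CPM under KO 1 to KO 3, and passed in neither fit (-0.16, SE 0.15, and -0.18, SE 0.13). Opposite-strand exons of Map3k15, at 0.446 CPM on average, cover 16.1% of the Pdha1 exons.

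The phosphatase that switches this complex on gave no call in either of the first 2 fits. Its catalytic subunit gene Pdp1 stood at 18.3, 25.2 and 15.5 CPM under WT 1 to WT 3 and at 13.7, 13.3 and 19.9 CPM under KO 1 to KO 3, so that the labels overlapped (-0.33, SE 0.26, adjusted p = 0.497, and -0.47, SE 0.24, adjusted p = 0.184 without WT 3). It passed only without both libraries numbered 3, at -0.68 (SE 0.19, adjusted p = 0.0175). Pdpr, the regulatory subunit, ranged from 5.08 to 8.55 CPM over the 6 libraries (0.09, SE 0.29, and 0.21, SE 0.30, without WT 3).

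Pcx, pyruvate carboxylase, had the largest fall of the 29. It stood at 64.0 and 58.3 CPM under WT 1 and WT 2 but at 22.9 CPM under WT 3, and at 25.4, 26.8 and 18.4 CPM under KO 1 to KO 3. The groups overlapped, because WT 3 lay inside the knockout range. With all 6 libraries the difference was -1.04 (SE 0.38, adjusted p = 0.342), and without WT 3 its log2 level fell by 1.37 (SE 0.18, adjusted p = 0.00129).

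**Figure D2:**
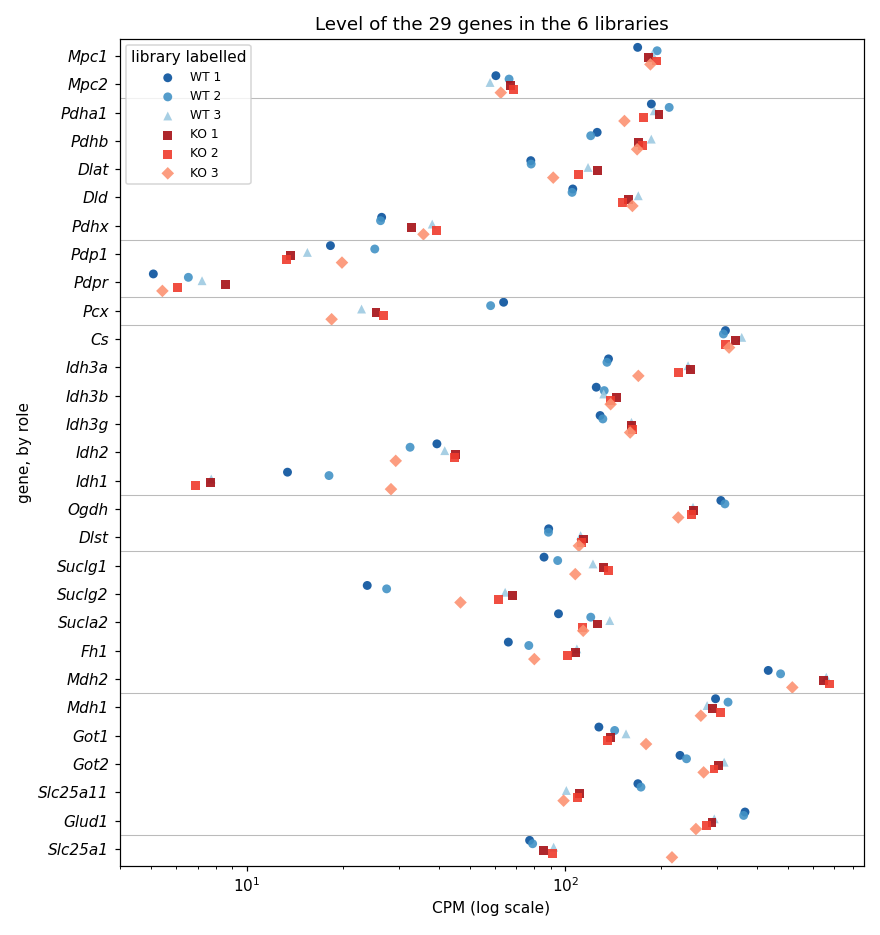
CPM (log axis) of the 29 genes in the 6 libraries, 1 point per library, coloured and shaped by label and offset vertically within a row, genes grouped by role. Pcx, Suclg2 and Slc25a11 show WT 1 and WT 2 apart from the other 4 libraries, and Slc25a1 shows KO 3 at 216 CPM apart from the other 5 at 77.2 to 91.9 CPM.

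At the entry of the cycle, the level plot shows Cs close to flat. Citrate synthase, which Cs encodes, makes citrate from acetyl-CoA and oxaloacetate, and its transcript stood at 318, 314 and 358 CPM under the wild-type labels and at 343, 317 and 327 CPM under the knockout labels. Its difference was -0.0043 (SE 0.14) with all 6 libraries and 0.06 (SE 0.08) without WT 3, and it passed in neither.

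The NAD-dependent isocitrate dehydrogenase IDH3 is built of alpha, beta and gamma subunits. Of its 3 genes 2 rose without WT 3, where 17.7% of all genes rose. Idh3a, the catalytic alpha subunit, stood at 137 and 135 CPM under WT 1 and WT 2, at 243 CPM under WT 3 and at 247, 227 and 170 CPM under KO 1 to KO 3. Idh3g, the regulatory gamma subunit, stood at 129, 131 and 161 CPM and at 161, 163 and 160 CPM, so that 4 libraries lay between 160 and 163 CPM, above WT 1 and WT 2. Idh3b, the beta subunit, stood at 125, 132 and 132 CPM and at 145, 138 and 139 CPM, with the knockout libraries all above the wild-type ones by a small margin. Without WT 3, Idh3a rose by 0.67 (SE 0.16, adjusted p = 0.0176) and Idh3g by 0.32 (SE 0.08, adjusted p = 0.0225), and Idh3b did not pass (0.14, SE 0.09, adjusted p = 0.277). The 3 differences with all 6 were 0.32 (SE 0.28), 0.20 (SE 0.14) and 0.12 (SE 0.12). The exons of Idh3b overlap those of Nop56, on the opposite strand, over 5 bases.

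The NADP-dependent isocitrate dehydrogenases supply NADPH in the cytosol (Idh1) and in mitochondria (Idh2). Idh1 stood at 13.4, 18.1 and 7.72 CPM under WT 1 to WT 3 and at 7.69, 6.90 and 28.3 CPM under KO 1 to KO 3, the widest relative range of the 29 genes, with KO 3 highest. Its difference was 0.13 (SE 0.60) with all 6 libraries, -0.13 (SE 0.60) without WT 3 and -0.84 without KO 3, none of which passed. Without both libraries numbered 3 it was -1.10 (SE 0.23, adjusted p = 0.00298). Idh2 stood at 39.5, 32.5 and 41.8 CPM and at 45.3, 45.0 and 29.3 CPM, and did not pass (0.07, SE 0.21, and 0.15, SE 0.21, without WT 3). In KO 3, where Idh1 was highest, the B cell gene Ighm was at 194 CPM, against 7.82 to 17.3 CPM in the other 5, while Cd79a stayed under 1 CPM in all 6. The part of that in the Idh1 value was not tested.

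The oxoglutarate dehydrogenase complex, which makes succinyl-CoA, had its subunit genes go in opposite directions. Ogdh, the E1 subunit, stood at 308 and 317 CPM under WT 1 and WT 2, at 252 CPM under WT 3, and at 252, 249 and 226 CPM under KO 1 to KO 3. Dlst, the E2 succinyltransferase, stood at 88.6, 88.5 and 112 CPM and at 114, 113 and 110 CPM. WT 3 lay inside the knockout range in both. Without WT 3, Ogdh fell by 0.36 (SE 0.09, adjusted p = 0.0184) and Dlst rose by 0.35 (SE 0.09, adjusted p = 0.0189), with -0.27 (SE 0.15) and 0.22 (SE 0.14) in the fit to all 6. The E3 of this complex is Dld, given above, which rose.

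Succinyl-CoA ligase makes succinate, and its alpha subunit (Suclg1) pairs with a GDP-forming (Suclg2) or an ADP-forming (Sucla2) beta subunit. Suclg2 stood at 23.9 and 27.5 CPM under WT 1 and WT 2, at 64.7 CPM under WT 3, and at 68.4, 61.6 and 46.8 CPM under KO 1 to KO 3. Without WT 3 it rose by 1.21 in log2 (SE 0.18, adjusted p = 0.0026), the largest rise of the 29, and differed by 0.61 with all 6 (SE 0.39, adjusted p = 0.418). Suclg1 stood at 85.7, 94.6 and 122 CPM and at 131, 136 and 107 CPM, and rose by 0.48 without WT 3 (SE 0.13, adjusted p = 0.0264, beside 0.31 with all 6). Sucla2 stood at 95.2, 120 and 138 CPM and at 126, 113 and 114 CPM, overlapping between labels, and passed in neither fit (-0.00079, SE 0.17, and 0.13, SE 0.12).

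The last steps to oxaloacetate pass through fumarase (Fh1) and mitochondrial malate dehydrogenase (Mdh2). Mdh2 stood at 434 and 474 CPM under WT 1 and WT 2, at 660 CPM under WT 3, and at 648, 676 and 516 CPM under KO 1 to KO 3, and rose by 0.44 without WT 3 (SE 0.13, adjusted p = 0.0379). Fh1 stood at 66.2, 76.8 and 109 CPM and at 108, 101 and 79.9 CPM. It did not pass without WT 3 (0.44, SE 0.15, adjusted p = 0.0627) and passed without both libraries numbered 3 (0.56, SE 0.10, adjusted p = 0.00128). In both genes KO 3 lay between WT 2 and the other knockout libraries. Across all 6, Mdh2 differed by 0.23 (SE 0.21) and Fh1 by 0.20 (SE 0.22).

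**Figure D3:**
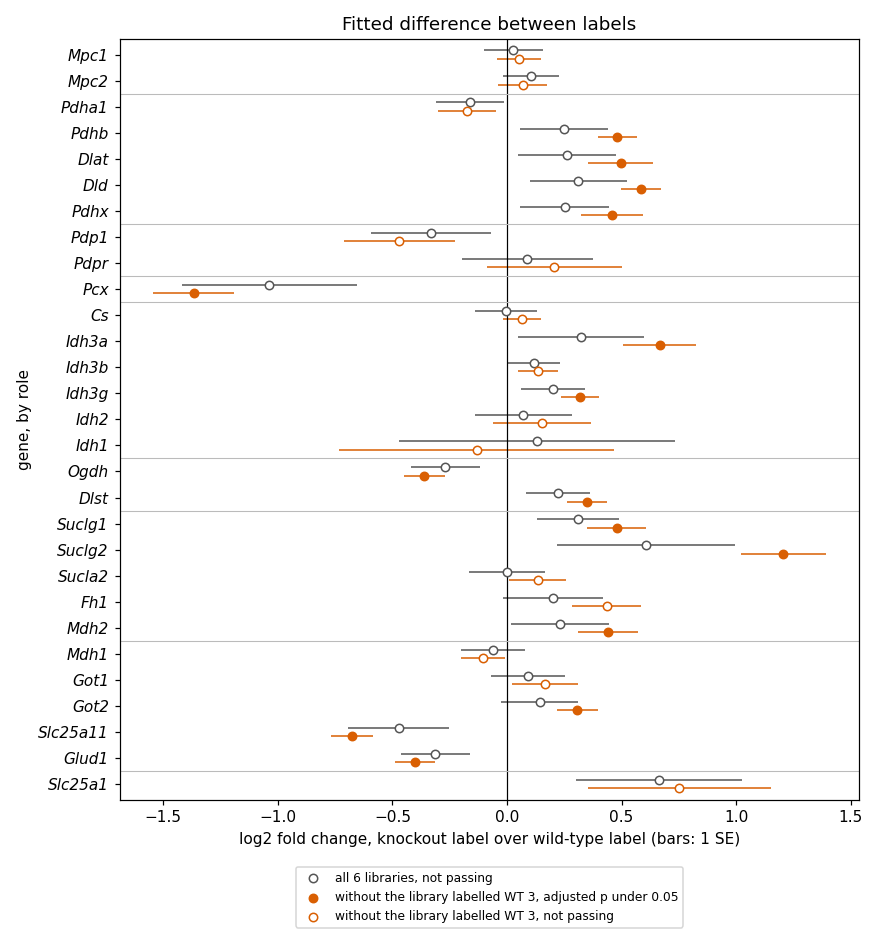
Fitted log2 fold change of the knockout label over the wild-type label for the 29 genes, with all 6 libraries (grey) and without the library labelled WT 3 (orange). Bars are 1 SE and filled points have an adjusted p under 0.05: 0 of 29 with all 6 libraries and 15 of 29 without WT 3. Of all genes tested, 0% and 33.9% passed in these 2 fits.

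In the plot of fitted differences, the 5 genes of the malate-aspartate shuttle and glutamate dehydrogenase held 2 of the 4 falls and 1 of the 11 rises. In that fit, without WT 3, 16.1% of all genes fell and 17.7% rose. Slc25a11, the carrier that exchanges 2-oxoglutarate for malate, stood at 169 and 173 CPM under WT 1 and WT 2, at 101 CPM under WT 3, and at 111, 109 and 98.7 CPM under KO 1 to KO 3. Glud1, glutamate dehydrogenase, which turns glutamate into 2-oxoglutarate, stood at 367, 363 and 294 CPM and at 289, 278 and 257 CPM, so that all 3 knockout libraries lay below all 3 wild-type ones. Without WT 3, Slc25a11 fell by 0.68 (SE 0.09, adjusted p = 0.00162) and Glud1 by 0.40 (SE 0.09, adjusted p = 0.0113). Their differences with all 6 were -0.47 (SE 0.22) and -0.31 (SE 0.15). Opposite-strand exons of Rnf167, at 33.9 CPM on average, cover 8.92% of the Slc25a11 exons, and no source used here says whether the counting used strand.

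Of the aminotransferases and the cytosolic malate dehydrogenase of the shuttle, 1 of 3 genes passed without WT 3, beside 33.9% of all genes. Got2, the mitochondrial aspartate aminotransferase, stood at 229, 240 and 315 CPM under the wild-type labels and at 302, 293 and 272 CPM under the knockout labels, and rose by 0.31 without WT 3 (SE 0.09, adjusted p = 0.0348, beside 0.14 with all 6). A pseudogene, Got2-ps1, is also in the table. Got1, its cytosolic counterpart, stood at 127, 143 and 155 CPM and at 138, 136 and 179 CPM, with differences of 0.09 (SE 0.16) and 0.17 (SE 0.14) that did not pass. Mdh1, the cytosolic malate dehydrogenase, stood at 296, 324 and 279 CPM and at 289, 307 and 266 CPM, with differences of -0.06 (SE 0.14) and -0.10 (SE 0.10) that did not pass.

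Slc25a1, the mitochondrial citrate carrier, was set by 1 library. It stood at 77.2, 78.9 and 91.9 CPM under WT 1 to WT 3 and at 85.3, 91.3 and 216 CPM under KO 1 to KO 3. Its difference was 0.66 with all 6 libraries (SE 0.36, adjusted p = 0.375), 0.75 without WT 3 (SE 0.40, adjusted p = 0.196) and 0.10 without KO 3 (adjusted p = 0.738). Acly, which splits exported citrate into acetyl-CoA in the cytosol, had the same shape, at 375 to 417 CPM in 5 libraries and 1079 CPM in KO 3. The Ighm level given above was high in the same library, and its part in these values was not tested.

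Relative levels within each enzyme were compared per kilobase of exon (GENCODE vM21, all annotated exons merged), which depends on how many annotated exons the cells use. By this measure Mdh2 was the most abundant of the 29 (median over libraries 163 CPM per kb, from 122 to 190), followed by Mdh1 (114, from 104 to 126) and Mpc1 (89.5, from 81.0 to 93.3). The ranges of Mdh1 and Mdh2 overlapped across libraries, but within every library Mdh2 lay above Mdh1, as at 122 against 115 CPM per kb in WT 1. The least abundant were Pdpr (1.25), Pdp1 (3.75), Idh1 (3.81) and Pcx (5.50 CPM per kb) by this median, an order that did not hold in every library. Pcx was at 13.5 and 12.3 CPM per kb in WT 1 and WT 2, above Dlst, Mpc2, Pdhx and Suclg2 there, and Idh1 was at 10.2 CPM per kb in KO 3. Cs, at 55.8 CPM per kb, stood between Got2 (58.5) and Got1 (55.3), with overlapping ranges.

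**Figure D4:**
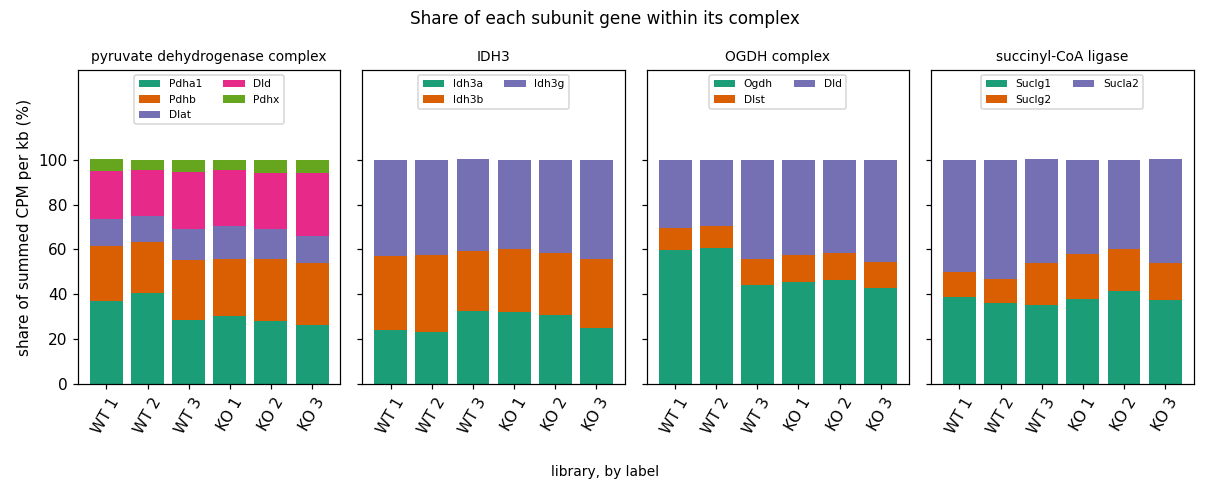
Share of each subunit gene in the summed CPM per kb of its complex, in each library by label, with bars running from 0 to 100%. Dld counts in both dehydrogenase complexes. The shares of Pdha1 and Ogdh are larger, and that of Suclg2 smaller, in WT 1 and WT 2 than in the other 4 libraries.

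The plot of subunit shares shows where the balance within an enzyme differed between libraries. Pdha1 made up 37.3% and 40.8% of the pyruvate dehydrogenase genes' per-kilobase level in WT 1 and WT 2, 28.5% in WT 3 and 26.2% to 30.3% under the knockout labels. Ogdh made up 59.8% and 60.6% of its complex, then 44.4%, then 42.7% to 46.4%. Suclg2 made up 10.8% and 10.5% of succinyl-CoA ligase, then 18.7%, then 16.4% to 19.8%. Idh3a made up 24.2% and 23.4% of IDH3, then 32.8%, and 32.3%, 30.8% and 25.1% in KO 1 to KO 3, so that KO 3 lay next to WT 1. These shares are descriptions, with no test.

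Ratios between paired genes within a library do not depend on library scaling, and 6 were compared with an exact two-sided permutation test, in which 3 libraries against 3 cannot give a p below 0.1. None reached that value. The ADP-forming over GDP-forming beta subunit (Sucla2/Suclg2) had log2 ratios of CPM of 1.97, 2.11 and 1.09 under WT 1 to WT 3 and 0.88, 0.87 and 1.27 under KO 1 to KO 3. The means were 1.72 ± 0.56 and 1.01 ± 0.23 (SD, n = 3 each; exact permutation p = 0.2, adjusted p = 0.75 over the 6 pairs). Carboxylase over dehydrogenase (Pcx/Pdha1) had ratios of -1.53, -1.85 and -3.03 and of -2.93, -2.69 and -3.02 (exact permutation p = 0.4). Cytosolic over mitochondrial malate dehydrogenase (Mdh1/Mdh2) had -0.55, -0.55 and -1.24 and then -1.16, -1.14 and -0.95 (exact permutation p = 0.4). Without WT 3 the differences were -1.03 for Sucla2/Suclg2, -1.19 for Pcx/Pdha1 and -0.54 for Mdh1/Mdh2, beside -0.72, -0.74 and -0.31 with all 6, each with an exact permutation p of 0.2, the smallest that 2 libraries against 3 can give. In all 3 pairs the WT 3 ratio lay far from WT 1 and WT 2 and close to the knockout libraries. Idh1/Idh2 ran from -2.62 (KO 2) to -0.049 (KO 3), with an exact permutation p of 0.8. Its difference was -0.15 with all 6 and -0.54 without WT 3, and changed sign when WT 2, KO 1 or KO 2 was left out (0.23, 0.24 and 0.31). Got1/Got2 (-0.07, exact permutation p = 0.8, and -0.15 without WT 3) changed sign without KO 1 or KO 2 (0.017 and 0.0091), and Mpc1/Mpc2 stayed between 1.43 and 1.69 in all 6 libraries (-0.07, exact permutation p = 0.5, and -0.014 without WT 3).

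**Figure D5:**
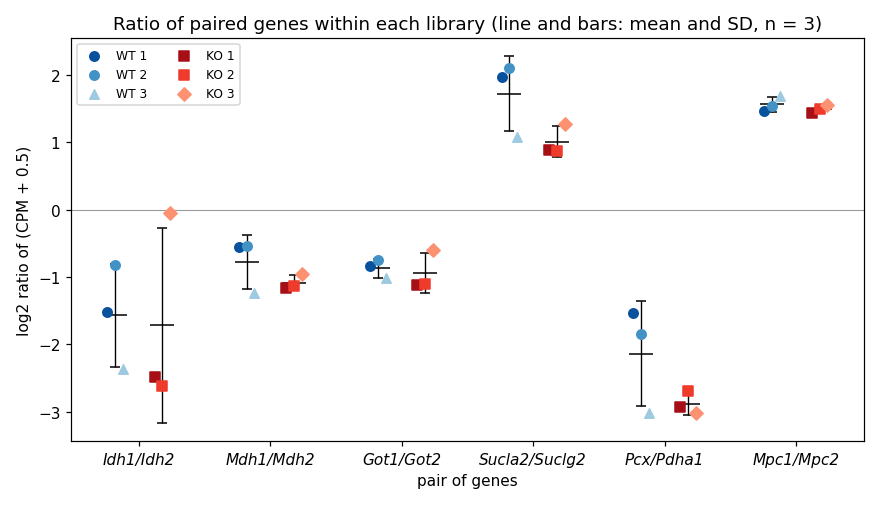
Log2 ratio of (CPM + 0.5) between paired genes in each library, points by label, with lines and bars for the mean and SD of the 3 libraries of a label. In Mdh1/Mdh2, Sucla2/Suclg2 and Pcx/Pdha1 the WT 3 point lies with the knockout points.

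Other genes of the pathway, from a list of 34 of which 31 were in the table and 29 tested, were read from the same fits. With all 6 libraries 0 of 29 passed by edgeR (4 at an unadjusted p under 0.05), and 0 by DESeq2, limma-voom and limma-trend. Without WT 3, 6 rose and 7 fell (44.8%), beside 33.9% of all genes called in that fit, 17.7% higher and 16.1% lower. Sdhc and Sdhd, the membrane subunits of succinate dehydrogenase, each rose by 0.33 without WT 3, while Sdha (0.27) and Sdhb (0.09), its catalytic subunits, did not pass.

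Kinases that switch pyruvate dehydrogenase off were lower outside WT 1 and WT 2. Pdk1 stood at 88.2, 91.6 and 41.8 CPM under the wild-type labels and at 56.1, 46.4 and 49.9 CPM under the knockout labels, and fell by 0.82 without WT 3 (SE 0.11, adjusted p = 0.00177). Pdk2 stood at 9.60, 11.7 and 3.45 CPM and at 3.19, 3.90 and 4.05 CPM, and fell by 1.51 (SE 0.25, adjusted p = 0.00336). Pdk3 did not pass (-0.31). Across all 6 their differences were -0.54, -1.15 and -0.24, with no call.

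Glutamine genes went different ways. Without WT 3, Slc1a5, a glutamine carrier of the cell surface, rose by 0.51 (SE 0.10, adjusted p = 0.00675), and Glul, glutamine synthetase, fell by 0.68 (SE 0.16, adjusted p = 0.0169). Among enzymes that use products of the cycle, Pck2, the mitochondrial phosphoenolpyruvate carboxykinase, rose by 0.78 and Gpt2, the mitochondrial alanine aminotransferase, by 0.95, while its cytosolic counterpart Gpt fell by 2.14 from levels of at most 4.06 CPM. Slc25a10, the dicarboxylate carrier, fell by 0.97, and Ldha, lactate dehydrogenase A, fell by 0.36. None of these passed with all 6 libraries.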

How the data were processed

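RNA-seq of sorted lung ILC2s was read from the authors' deposited tables. Groups and replicate numbers came from the sample titles, and columns were matched through the sample descriptions. The authors deposited estimated counts per gene (18543 genes), of which 47.1% to 48.5% per library were whole numbers (within 1e-06), and a normalized signal (16322 genes), whose values match (estimated count + 1) over a constant for each library to a relative 6.6e-06. CASAVA 1.8.2, STAR, Partek and mm10 appear in the submitters' processing notes, with no role or order. No source used here says how multi-gene reads were shared out or if counting was stranded.

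Estimated counts were rounded and tested with edgeR 4.0.16 (R 4.3.3): filterByExpr, TMM, glmQLFit with robust estimation, glmQLFTest, no covariate, Benjamini-Hochberg adjustment over all tested genes, threshold 0.05. An SE is the absolute log2 fold change over the root of its F statistic. CPM use the TMM-adjusted library size, and 3 counts correspond to 0.0892 to 0.104 CPM, covering counting error only. The script was tested on simulated counts with the same dispersion for all genes and every library following its label. That setting holds no library like WT 3, so it does not show how the fit behaves on these data. The labels do not say that replicates are separate mice, so the spread behind each p-value may be technical.

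The members and lists were chosen with earlier results of these data known. All 29 members are named, with values in every library for those that passed, whose labels did not overlap, or that belong to a ratio pair; the others were to be given by range, and library values of Pdp1, Cs, Fh1 and Slc25a1 were added after they were seen. Of each marker list the most abundant gene is named. Of other pathway genes those that passed without the library labelled WT 3 are named, except some not reported here, and Sdha, Sdhb, Pdk3 and Acly were added after their values were seen. Coordinates equal GENCODE vM21 for 28 of 29 members, with the deposited end reduced by 1 base. Of the 29, 7 share exonic bases with another gene, named where it bears on a result. Alternatives were other scalings, filters, DESeq2 1.42.0, limma 3.58.1 (voom, and trend on log2 of that signal, pseudocount 1), the replicate number as a block, and libraries left out.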

Additional observations from a re-analysis of the deposited data

How the results depend on the processing

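With all 6 libraries, no setting but DESeq2 called any gene: it called 323 genes, none of them among the 29 or the other pathway genes. Counts of calls depended on the library labelled WT 3. Leaving out 1 library gave 0 to 4991 genes, 0 to 15 members, 0 to 13 other pathway genes and an Atg5 difference of -1.13 to -0.39. Fits without WT 3 under another scaling or tool were added after the data were seen. In the order DESeq2 size factors, upper quartile, library totals, DESeq2 and limma-voom, they called 4941, 4946, 4960, 5668 and 5184 genes, 13, 12, 15, 15 and 15 members and 13, 14, 13, 15 and 13 other pathway genes, with Atg5 at -1.06, -1.08, -1.05, -1.06 and -1.13. In all 5, which use the same libraries, the 15 members kept their sign. Without both libraries numbered 3, 6505 genes, 18 members and 20 other pathway genes passed, and Atg5 differed by -1.50. The median of the 29 genes stayed between 0.064 and 0.17 when 1 library was left out.

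Members that changed sign had differences near 0 or rested on 1 library. Mpc1 was at -0.0070 without a filter, -0.0073 with the 2 CPM filter and -6.96e-05 by limma-trend. Idh1 was at -0.17 with the replicate block, -0.11 by limma-voom, -0.11 by limma-trend and -1.10 without both libraries numbered 3. Sucla2 was at 0.013 with the block, 0.014 by limma-voom and 0.16 without both, and Cs at 0.071 without both. In those 5 added fits, in the same order, Cs was at 0.041, 0.019, 0.047, 0.041 and 0.064, Idh1 at -0.16, -0.18, -0.15, -0.16 and -0.44, and Sucla2 at 0.11, 0.089, 0.12, 0.11 and 0.14. Leaving out 1 library gave ranges of -0.055 to 0.069 for Mpc1, -0.84 to 0.44 for Idh1, -0.16 to 0.13 for Sucla2, -0.054 to 0.065 for Cs, -0.12 to 0.22 for Pdpr, -0.046 to 0.17 for Got1 and -0.053 to 0.26 for Idh2, and -0.98 to 0.31 for the Idh1/Idh2 and -0.25 to 0.017 for the Got1/Got2 log2 ratios. The cause was not tested.

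The labels share replicate numbers without saying that they pair mice. Deviations from the group means correlated at -0.0367, 0.0196 and -0.00776 for numbers 1, 2 and 3. Between libraries of different numbers the correlations ran from -0.0147 to 0.0246, so libraries of equal number were not more alike. These deviations come from means of 3 libraries, with WT 3 apart from WT 1 and WT 2. They therefore do not decide whether mice were paired. The replicate block called 0 genes and 0 members, as did the fit without it.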

Other observations

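Other genes, chosen after their values were seen, were at their extreme in the library labelled KO 3. Me1, the cytosolic malic enzyme, was at 76.6 CPM there and at 43.3 to 62.5 CPM in the other 5 libraries, and Aco1, the cytosolic aconitase, at 72.4 CPM against 66.4 and 68.7 CPM in WT 1 and WT 2 and 46.9 to 50.4 CPM in the remaining 3. Slc38a2, an amino acid carrier that takes up glutamine, was at 369 CPM against 199 to 268 CPM. Slc25a13, a mitochondrial aspartate-glutamate carrier, went the other way, at 1.15 CPM against 2.78 to 7.93 CPM. With all 6 libraries none of these 4 genes passed. A single library stands behind these values, so no test was made.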
